A study of Mus musculus with 2 samples.

Results

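The spots described here are the tenth of the control heart section that was richest in Myl7 and Myl4, the atrial regulatory and essential myosin light chains, and they are called Myl7/Myl4-high spots below. Of 1256 control spots over tissue, 1249 held at least 1000 unique molecular identifiers (UMIs), and the 125 with the largest share of Myl7 and Myl4 among their UMIs were selected, which left 1124 other spots for comparison. The selection rests on measured values, so Myl7 and Myl4 are not reported as findings, and every value below describes these spots without a test. The assay was Visium CytAssist on formalin-fixed tissue, in which gene probes are captured on a grid of barcoded spots. Each spot covers a small area of tissue, so its counts can come from several cells, or parts of cells, of different types.

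The section came from 1 control α-MHC-MerCreMer+/− mouse, and a section of 1 α-MHC-MerCreMer+/− hTOP2BLSL/− mouse was used for comparison. Both animals carried the tamoxifen-inducible Cre under the α-MHC promoter, which is active in cardiomyocytes, and both were given a single intraperitoneal dose of 80 mg/kg of tamoxifen at 6 weeks of age by the study's methods. In the transgenic animal, Cre removes a STOP cassette in front of human TOP2B at the Rosa26 locus. The control section held 14376300 UMIs, with a median of 11257 per Myl7/Myl4-high spot and 11353 per other spot. With 1 section per genotype there is no spread between animals, and the intervals in parentheses are 95% intervals of counting error only (exact Poisson for levels, exact conditional binomial for log2 ratios and Clopper-Pearson for shares).

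Cardiomyocytes of the atria and the ventricles use different myosin light chains. Myl7 and Myl4 are the atrial forms, Myl2 and Myl3 the ventricular ones. Atrial cells of the adult heart also make the natriuretic peptide precursor Nppa in quantity, sarcolipin (Sln), which restrains the calcium pump SERCA, and the myosin-binding protein H-like protein Mybphl. Bmp10 is a growth factor of the right atrium. Nppa, Acta1 and Ankrd1 are also known in ventricular muscle as genes that respond to load and injury.

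The label "atrial" was checked against these genes first. The whole section held 283 Myl7 and Myl4 UMIs (125 of Myl7 and 158 of Myl4), and only 98 of the 1249 spots (7.85%) had any. The selected spots therefore included 27 with no Myl7 or Myl4 UMI, which entered by their place in the barcode list alone, 80 with 1 UMI, 7 with 2 UMIs and 11 with 3 or more. The score, in UMIs per 10000, was 117, 52.4 and 40.8 in the highest 3 spots, 4.91 in the spot ranked 10 and 0.864 at the median. The lowest score above 0 was 0.465, and the spots just inside and just outside the limit both scored 0. Of the other atrial genes, Sln was at 4.84 CPM (UMIs per 1000000 of the pooled spots; 1.95 to 9.98) in the selected spots and 0.696 CPM in the others, and Mybphl at 3.46 CPM (1.12 to 8.07) and 0.696 CPM. These levels rest on 7 and 5 UMIs, each found in 4 of the 125 selected spots, and Bmp10 had 0 UMIs in the selected spots and 9 in the others. Ventricular Myl2 stood at 20790 CPM in the selected spots and 21116 CPM in the others. The data thus do not bear out an atrial identity for most of the selected spots.

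**Figure D1:**
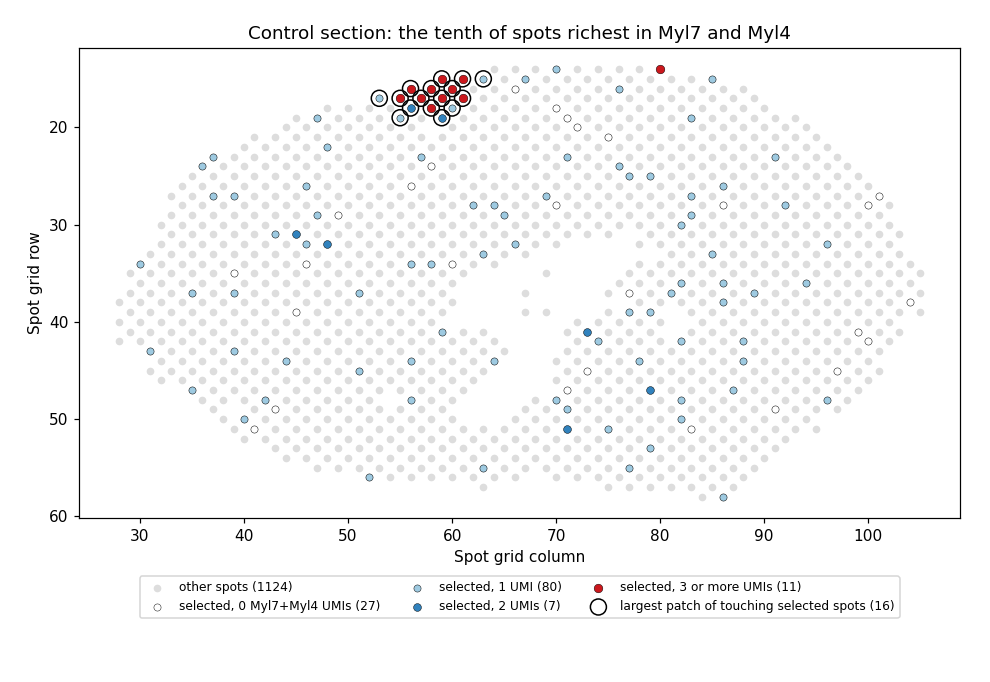
The selected and other spots of the control section on the spot grid (column and row numbers), with the selected spots colored by their number of Myl7 and Myl4 UMIs and the largest patch of touching selected spots ringed. The 16 ringed spots sit together at the upper left edge and include 10 of the 11 spots with 3 or more UMIs, while spots with 0 or 1 UMI are scattered.

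Position was not used by the rule. A patch of 16 touching spots at the upper left edge of the tissue (grid rows 15 to 19, columns 53 to 63) held 194 of the 283 Myl7 and Myl4 UMIs (68.6%), and 1.07% of all UMIs, a share that describes the selection and is no finding. The 109 spots outside it shared the remaining 89. The next largest group was 1 patch of 4 spots, followed by 5 patches of 3, 15 pairs and 60 single spots. Of the 125 spots, 65 (52.0%) touched another selected spot, and 41.9% of the other spots touched a selected one. The selected spots lay at the tissue edge (fewer than 6 tissue neighbors) in 24.8% of cases and the other spots in 17.2%. Of the 16 patch spots, 8 lay at the edge.

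The genes highest in the patch apart from Myl7 and Myl4, among 1063 genes with at least 2000 UMIs, were Acta1 (skeletal α-actin), Ankrd1 (a stretch-responsive ankyrin repeat protein of the sarcomere and nucleus) and Nppa. Their promoters are shown because these 3 genes lead the region. The sequences are those of RefSeq on GRCm38.p6, from 250 bases before to 50 bases after the annotated start, at chr4:148000472-148000771 on the + strand for Nppa, chr8:123894726-123895025 on the - strand for Acta1 and chr19:36119795-36120094 on the - strand for Ankrd1. Capitals mark matches, on either strand, to TATAAA (the TATA box), GATAA (the core recognized by GATA factors) and CATTCC (the MCAT element recognized by TEAD factors).
Nppa: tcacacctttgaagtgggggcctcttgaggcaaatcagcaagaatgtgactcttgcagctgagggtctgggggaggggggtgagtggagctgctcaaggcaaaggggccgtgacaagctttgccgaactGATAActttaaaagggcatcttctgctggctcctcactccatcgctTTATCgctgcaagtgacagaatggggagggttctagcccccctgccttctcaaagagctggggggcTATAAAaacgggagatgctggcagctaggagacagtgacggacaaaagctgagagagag
Acta1: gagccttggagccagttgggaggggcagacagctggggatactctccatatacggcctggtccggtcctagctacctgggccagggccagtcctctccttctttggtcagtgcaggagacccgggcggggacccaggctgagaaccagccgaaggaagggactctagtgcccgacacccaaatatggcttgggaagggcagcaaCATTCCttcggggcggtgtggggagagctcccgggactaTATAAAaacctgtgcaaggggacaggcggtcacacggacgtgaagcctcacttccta
Ankrd1: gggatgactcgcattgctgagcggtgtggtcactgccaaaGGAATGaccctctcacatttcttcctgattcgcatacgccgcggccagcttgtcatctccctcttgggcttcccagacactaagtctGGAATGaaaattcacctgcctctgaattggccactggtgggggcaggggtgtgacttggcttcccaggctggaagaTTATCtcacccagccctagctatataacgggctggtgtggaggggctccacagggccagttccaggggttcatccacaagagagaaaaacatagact
The Nppa window held 2 GATAA matches and TATAAA, the Acta1 window CATTCC and TATAAA, and the Ankrd1 window 2 CATTCC matches and GATAA. Among all 32851 promoter windows of this length, 13.6% held TATAAA, 25.4% GATAA and 14.7% CATTCC, so each match is a description of the window and not a site shown to be used.

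Nppa was highest in the 3 spots of the patch with the highest scores, which held 16, 51 and 12 Nppa UMIs among totals of 4799, 6678 and 9553. They stood at 3334, 7637 and 1256 CPM. The other 13 patch spots held between 0 and 4 Nppa UMIs, with a median of 105 CPM and a highest value of 506 CPM, so the 3 leading spots did not overlap with the rest of the patch. Among the 1124 other spots the median was 0 and the highest 14142 CPM, so Nppa as high as in the patch was also found elsewhere in the section. Pooled over the 16 spots Nppa reached 657 CPM (535 to 799) against 264 CPM (255 to 273), a log2 ratio of 1.32 (1.02 to 1.60). This pooled value came from the 3 leading spots, which held 79 of the 101 UMIs. The other 13 patch spots pooled to 166 CPM (104 to 251), below the 264 CPM of the other spots. The patch accounted for 2.57% of the section's 3933 Nppa UMIs.

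Among the selected spots, Sln was found only in the 4 patch spots with the highest scores. The gene, at 2, 3 and 1 UMIs in the 3 leading spots and 1 UMI in the fourth, was at 0 in the remaining 12 patch spots and in all 109 selected spots outside, where a floor of 3 counts allows up to 2.32 CPM. Its level was 45.6 CPM in the patch (18.3 to 93.9) and 0.696 CPM (0.318 to 1.32) in the other spots, where 9 of 1124 spots (0.801%, 0.367 to 1.51) had a UMI. Mybphl had 4 UMIs in the patch, spread over 3 spots, 1 in the selected spots outside and 9 in the other spots. Dkk3, a secreted Wnt modulator, had 6 UMIs in the patch, 3 outside and 48 in the other spots. Bmp10 was at 0 in every selected spot. All of these rest on single-digit counts in the patch.

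The ventricular light chain gene Myl2 was low in the 3 leading spots but still present. It had 32, 66 and 121 UMIs in the 3 spots, which is 6668, 9883 and 12666 CPM, and the other 13 patch spots ranged from 15380 to 21873 CPM. The selected spots outside the patch ranged from 14826 to 42579 CPM, above all 3 leading spots, while the other spots ran from 4164 to 68262 CPM. Pooled over the patch, Myl2 was at a log2 ratio of -0.32 (-0.38 to -0.26) and the SERCA inhibitor phospholamban (Pln) at -0.37 (-0.47 to -0.26). Myl3, at 0.04 (-0.05 to 0.13), was close to the level of the other spots, and the transcriptional cofactor Lbh was at 0.26 (0.07 to 0.45). The 10 genes of the ventricular list summed to 21160 CPM in the 3 leading spots (19240 to 23221), 30442 CPM in the patch and 35692 CPM in the other spots. The 17 genes of the atrial list besides Myl7 and Myl4 summed to 5421 CPM (4472 to 6512), 1536 CPM and 939 CPM, and 79 of the 114 UMIs in the 3 leading spots were Nppa. Myh6, the adult myosin heavy chain shared by both chambers, was at 12711, 11381 and 15388 CPM in the 3 spots. The 3 spots also differed in other cell type lists. Their fibroblast list summed to 5659 CPM (4688 to 6771), against 2206 CPM in the other spots. The epicardial and endocardial lists, on 12 UMIs each, were both at 571 CPM (295 to 997), against 37.4 and 119 CPM. The smooth muscle and pericyte list was level, at 1759 CPM (1239 to 2425) against 1626 CPM. The part of these cell types in the Nppa and Myl2 levels was not tested. In a spot, fewer cells of a type and less RNA per cell cannot be told apart.

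**Figure D2:**
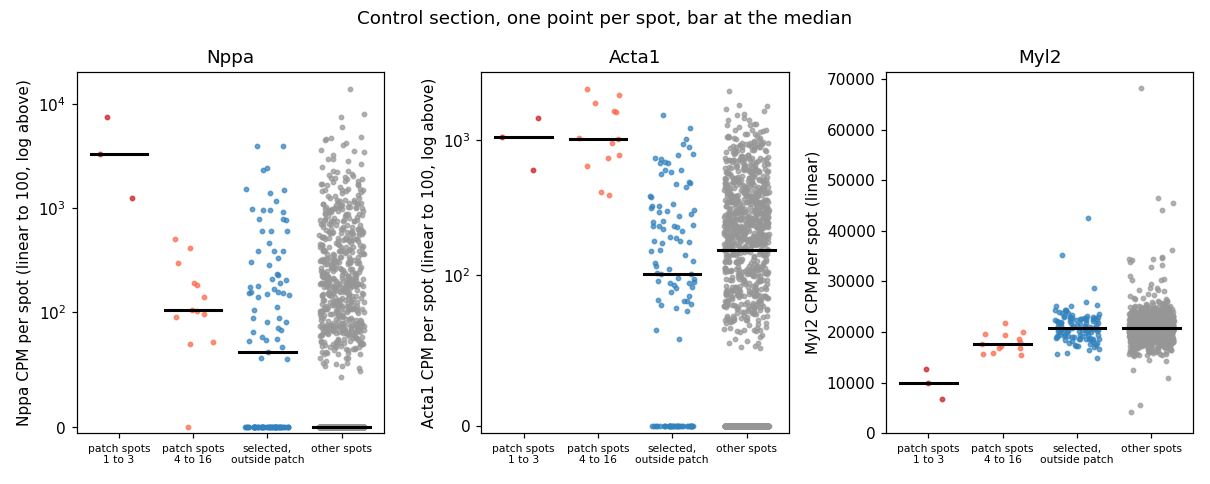
Nppa, Acta1 and Myl2 in CPM per spot of the control section, with each point a spot and each bar a median, for the 3 patch spots with the highest scores, the other 13 patch spots, the 109 selected spots outside the patch and the 1124 other spots. Nppa and Acta1 are on an axis that is linear to 100 and logarithmic above, and Myl2 is on a linear axis; the 3 leading spots are high in Nppa and low in Myl2, and Acta1 is high in the whole patch.

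Acta1 followed another layout. All 16 patch spots had Acta1 UMIs, from 392 to 2399 CPM, at a median of 1047 CPM in the 3 leading spots and 1011 CPM in the other 13. The pooled level was 1204 CPM (1037 to 1390) against 236 CPM (228 to 245) in the other spots, a log2 ratio of 2.35 (2.13 to 2.57). The 14 unselected spots that touch the patch stood at 770 CPM (632 to 930), those 2 steps away at 476 CPM, and those 8 or more steps away at 223 CPM. Ankrd1 fell off with distance in a like way, from 2388 CPM (2150 to 2646) in the patch to 1383 CPM (1196 to 1592) in the touching spots and 823 CPM at 8 or more steps, with a log2 ratio of 1.53 (1.37 to 1.68) for the patch. Nppa did not, since the touching spots held only 143 CPM (87.1 to 220), near the 166 CPM of the patch spots other than the 3 leading ones. The glutathione peroxidase gene Gpx3 was at 462 CPM (361 to 583) over the patch and 92.7 CPM (49.4 to 159) in the touching spots. It was at 208 CPM (141 to 295) 2 steps away. Gpx3 was highest in the 3 leading spots, at 1331 CPM (885 to 1924), against 324 CPM in the other 13. Lrtm1, a leucine-rich repeat membrane protein gene, was at 605 CPM in the patch, 513 CPM in the touching spots and 233 CPM at 8 or more steps.

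**Figure D3:**
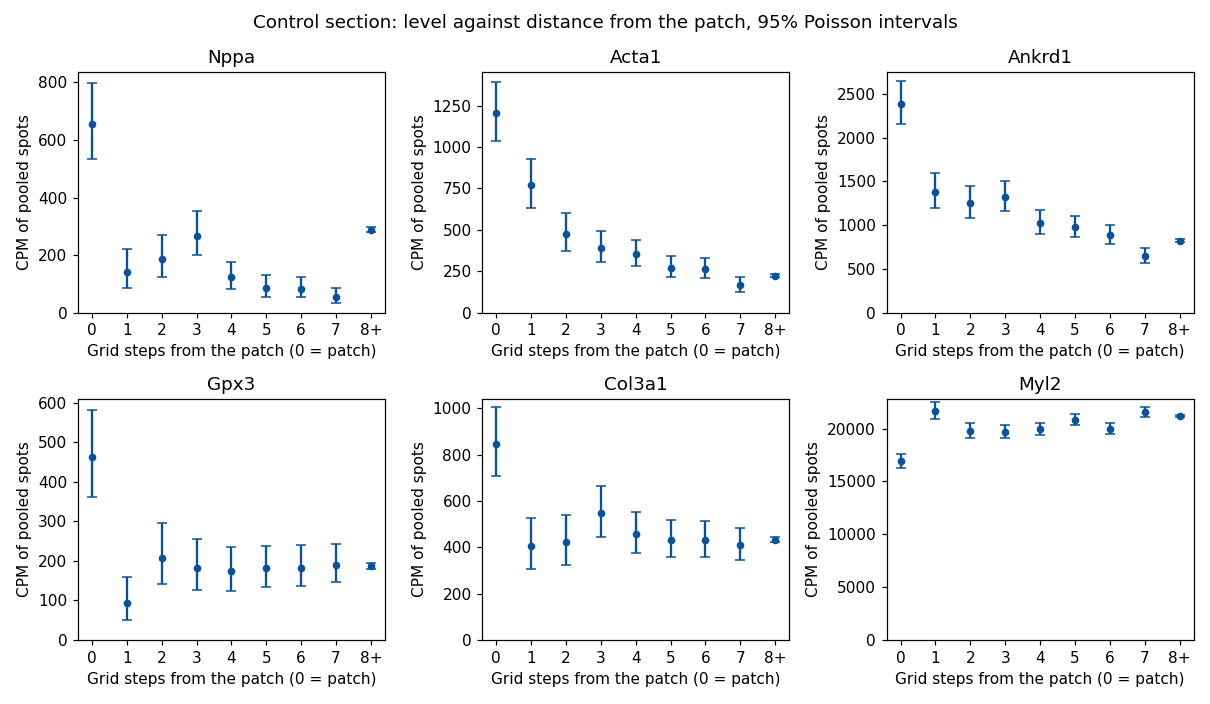
Pooled CPM of 6 genes in the control section against the number of grid steps from the patch, with 95% Poisson intervals as bars and 8+ pooling all spots 8 or more steps away. Acta1 and Ankrd1 decline over several steps from 1204 and 2388 CPM. The pooled values of Nppa, Gpx3 and Col3a1 drop at the first step, and Myl2 is lowest in the patch. The pooled Nppa value of the patch comes from its 3 leading spots, and its other 13 spots stand at 166 CPM.

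Some collagen and other matrix genes, taken from the genes ranked highest in the patch, were higher there than in all other spots. Against the other edge spots they were less so. The fibrillar collagen genes Col3a1, Col1a2 and Col1a1 had log2 ratios of 1.00 (0.74 to 1.25), 0.93 (0.59 to 1.25) and 0.89 (0.45 to 1.31), the matrix Gla protein gene Mgp 1.04 (0.79 to 1.29) and the proteoglycan gene Bgn 0.85 (0.43 to 1.25). The other fibroblast genes with at least 2000 UMIs, gelsolin (Gsn) and the collagen-binding proteoglycan gene Dcn, were at 0.44 (0.17 to 0.70) and 0.22 (-0.16 to 0.57). The interval of the matrix gene Dcn thus included 0. The 14 fibroblast genes summed to 3553 CPM (3261 to 3864) in the patch, 2984 CPM (2903 to 3066) in the 193 other edge spots and 2206 CPM in all other spots, with Col3a1 as the most abundant in the patch. Against the other edge spots alone, Col3a1 was at 0.40 (0.13 to 0.67), Col1a2 at 0.46, Col1a1 at 0.62, Mgp at 0.49, Bgn at 0.72, Gsn at -0.02 (-0.30 to 0.25) and Dcn at -0.22 (-0.60 to 0.14), while Acta1 remained at 2.14 (1.89 to 2.39) and Nppa at 1.12 (0.80 to 1.43). Mgp was also high in the spots touching the patch, at 763 CPM (625 to 922) against 885 CPM (743 to 1047) in it. The 13 measured epicardial genes summed to 32 UMIs or 208 CPM (142 to 294) in the patch, 75.9 CPM (63.5 to 90.0) at the other edge and 37.4 CPM (34.1 to 40.8) in all other spots. Of them 8 had a UMI in the patch, led by Gpm6a with 7, and the mesothelial markers Msln, Upk3b and Wt1 had 4, 2 and 2, while Krt8, Muc16, Tbx18, Bnc1 and Slpi were at 0. The macrophage list stood at 852 CPM (713 to 1012) against 596 CPM, with Cd74 as its most abundant gene and Lyz2, Adgre1 and Lyve1 at 0. The hemoglobin gene Hba-a2 was lower in the patch, at a log2 ratio of -1.20 (-1.49 to -0.93) against all other spots and -2.53 (-2.82 to -2.26) against the other edge spots. The spots around the patch were as low, at 742 CPM (606 to 899) 1 step away and 503 CPM (396 to 631) 2 steps away, against 690 CPM (565 to 834) in it. The part of these cell types in the patch's levels was not tested.

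With genes counted as higher or lower when they passed 1.5-fold, 29 of the 1063 abundant genes were higher in the patch (2.73%) and 42 lower (3.95%). The lists read against these shares as follows, counting only their genes among the 1063. Of the stress and fetal list only Acta1 and Ankrd1 were abundant enough, and both were higher. Its other genes were not compared, so the list as a whole is not described. Of these, Nppb and Tnni1 had no UMI in the patch. Also higher were 3 of 5 fibroblast genes (Col3a1, Col1a2 and Col1a1) and 1 of 4 smooth muscle and pericyte genes (the pericyte gene Rgs5, 0.76). The single macrophage gene (Cd74, 0.76) and 1 of 2 atrial genes (Nppa) were higher too. None of the 6 ventricular, 17 adult contractile, 13 calcium handling, 5 capillary endothelial or 24 oxidative phosphorylation genes passed 1.5-fold in either direction. Of the 20 fatty acid oxidation genes 1 was lower, and both erythroid genes were. Among the 15 lowest genes were Map2k2, a MAP kinase kinase (-1.23, -2.18 to -0.42), and Mef2d, a muscle transcription factor (-1.11, -2.02 to -0.33), with 12 and 13 UMIs in the patch.

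The 109 selected spots outside the patch were close to the other spots in nearly every gene. Of 8970 genes with at least 100 UMIs, 174 were at least 1.5-fold higher (1.94%) and 286 lower (3.19%), around a median log2 ratio of 0.01. None of the 10 measured atrial genes and none of the 9 ventricular genes was among them, at medians of -0.03 and 0.01. Myl2 stood at 0.01 (-0.01 to 0.03), Pln at -0.01 (-0.04 to 0.03) and Acta1 at -0.04 (-0.22 to 0.13). Nppa was at 0.29 (0.14 to 0.44) and Ankrd1 at 0.23 (0.15 to 0.32). Of these 109 spots 15 (13.8%) belonged to the tenth of the section richest in Nppa, and 9.52% of the other spots did.

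In all, 6 spots outside the patch had more than 1 Myl7 or Myl4 UMI, and they differed in Nppa. The spot with 3 Myl7 UMIs, at the upper edge (row 14, column 80), had no Nppa UMI. The 5 spots with 2 Myl4 UMIs had 5, 0, 26, 33 and 57 Nppa UMIs, which is 605, 0, 2325, 2450 and 3969 CPM. All 6 had 0 UMIs of Sln, Mybphl and Bmp10. Their Myl2 levels, from 17197 to 22907 CPM on 118 to 278 UMIs, were near the median of the other spots. By number of Myl7 and Myl4 UMIs, Nppa was at 129 CPM (93.9 to 173) in the 27 selected spots with none, 276 CPM (244 to 312) in the 80 spots with 1, 1522 CPM (1266 to 1815) in the 7 with 2 and 977 CPM (791 to 1195) in the 11 with 3 or more. The other spots stood at 264 CPM, near the spots with 1 UMI. The 27 spots with none and the other spots all scored 0 and were parted by barcode order alone. The lower Nppa of the 27 thus does not follow from the score. The intervals, of counting error only, do not cover such spread between spots.

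Over all 125 spots the contrast was small. Of 9000 genes with at least 100 UMIs, 170 were at least 1.5-fold higher (1.89%) and 251 lower (2.79%), and the median log2 ratio was 0.01. With edgeR TMM factors the same counts were 107 and 343, and with DESeq2 size factors 109 and 337. Among genes with at least 500 UMIs, 3 were higher and 7 lower. Of the 11 measured genes of the atrial list 1 was higher, the lipid transfer protein gene Stard10 at 0.66 (0.22 to 1.08), and the list's median was 0.01. Nppa was at 359 CPM against 264 CPM, or 0.44 (0.31 to 0.58), and it went to -0.32 when every spot was thinned to 5000 UMIs before the selection, to -0.14 with the richest 20% of spots and to -0.068 with Myl7 alone as the score. The amidating enzyme gene Pam, the most abundant atrial list gene, was at 0.04 (-0.09 to 0.17), and the acetylcholine-gated potassium channel genes Kcnj3 and Kcnj5 at -0.05 (-0.34 to 0.24) and -0.16 (-0.46 to 0.13). The transcription factor genes Tbx5, Nr2f1, Nr2f2 and Hey1 lay between -0.37 and 0.01 with intervals that include 0. The intervals of the channel genes Kcna5 (0.11), Gja5 (0.29) and Cacna1d (1.01, on 9 UMIs) did so too. None of the 9 measured ventricular genes passed 1.5-fold, from -0.14 for Kcnj2 to 0.44 for Kcnd2, and Hey2 had 1 and 12 UMIs.

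Among genes with at least 500 UMIs, the complement gene C3 had the highest ratio in the selected spots, with 132 and 653 UMIs and a log2 ratio of 0.85 (0.57 to 1.13). It was at 2.50 in the patch and 0.43 outside it, and at 122 CPM in the other edge spots against 39.3 CPM in the other inner ones. Below it came the ADP-ribosylation factor gene Arf2 (0.59, 0.25 to 0.91), and then Ccdc80, Tpm2, Fzr1, Uggt1, Synpo, Acta1, Hexa, Plcd1, Entr1, Dnajc11, Eln and Nppa, all from 0.44 to 0.54. Acta1 in this group came from the patch, while β-tropomyosin (Tpm2) was at 0.57 outside it. At the low end stood Ube2l6, an enzyme of ISG15 conjugation, with 32 and 570 UMIs (-0.99, -1.56 to -0.48), Gm38394 (-0.83) and Rragd, a GTPase of lysosomal nutrient sensing (-0.72). Secisbp2l, Pip4k2b, Apool, F13a1, Stx17, Unc50, 4833420G17Rik, Snf8, Hnrnph2, Fam214b, Nubp2 and Ufm1 followed from -0.66 to -0.48. All of these genes came from a ranking of the same 125 spots, each with under 600 UMIs in them.

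The counts for the cell type lists over the 125 spots stand beside 1.89% of all genes higher and 2.79% lower, and most rest on a single gene. Of the 6 measured endocardial genes 2 were higher, at a list median of 0.45, with Plvap, a diaphragm protein of fenestrated endothelium, at 1.06 (0.54 to 1.55) and the most abundant gene Emcn at -0.33 (-0.95 to 0.24). The 10 genes of the whole list summed to 154 CPM (135 to 176) in the selected spots, 225 CPM (204 to 249) in the other edge spots and 102 CPM (96.1 to 108) in the other inner spots. Of 14 fibroblast genes 1 was higher, the receptor gene Pdgfra at 0.66 (0.11 to 1.17), at a median of 0.27, and the actin-severing gelsolin gene Gsn was at 0.25 (0.16 to 0.35). Of 11 smooth muscle and pericyte genes 1 was higher, the smooth muscle myosin gene Myh11 at 0.66 (0.28 to 1.02), and Rgs5 was at 0.19 (0.07 to 0.31). Of the 6 conduction genes 1 was higher, the T-type calcium channel gene Cacna1g, at 0.71 (-0.04 to 1.39) on 21 UMIs. Of 9 macrophage genes 1 was lower (F13a1), of 3 valve genes 1 higher (Postn, 0.65) and of 13 capillary endothelial genes none, with Fabp4 at -0.03 and Esam lowest at -0.36. The stress and fetal list had 2 of 7 higher, the deubiquitinase gene Uchl1 at 0.80 (0.09 to 1.46) and the fetal myosin heavy chain gene Myh7 at 0.65 (0.27 to 1.01). Myh7 had 1 UMI in the patch and 71 in the selected spots outside it. Of the immediate early genes 1 of 8 was higher (Atf3, 0.73). Each of the lymphocyte, adipocyte, epicardial and skeletal muscle lists had a single gene with at least 100 UMIs. Of these Ccl5 (0.67) was higher, on 22 UMIs, and Cidea (-0.15), Aldh1a2 (0.05) and Myl1 (0.14) were not past 1.5-fold. No lung gene was measured at that depth.

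Muscle and energy genes were level. None of the 17 adult contractile, 15 calcium handling, 24 oxidative phosphorylation and 20 fatty acid oxidation genes passed 1.5-fold in either direction, at medians of -0.01, 0.02, -0.03 and -0.07. Myh6 was at -0.01 (-0.03 to 0.01), the calcium pump gene Atp2a2 at -0.02 (-0.03 to 0.00), Cox6a2 at -0.07 (-0.10 to -0.04) and the fatty acid carrier gene Fabp3 at -0.02 (-0.04 to 0.00). The sodium-calcium exchanger gene Slc8a1 was the highest of the calcium genes, at 0.17 (0.03 to 0.30). No erythroid gene passed 1.5-fold, with Hba-a2 at -0.26 (-0.33 to -0.19).

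**Figure D4:**
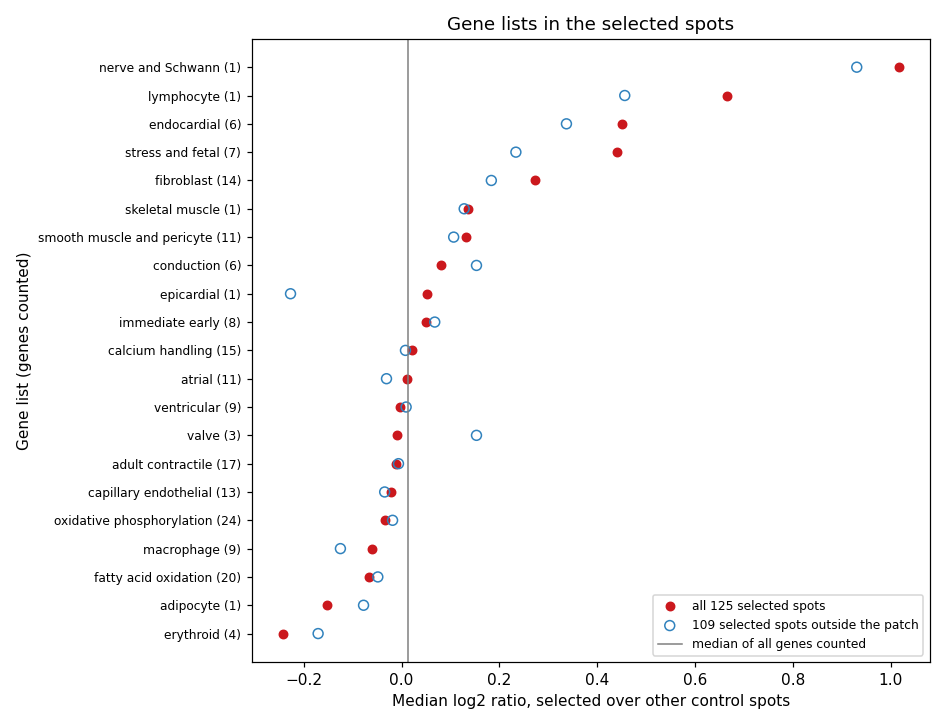
Median log2 ratio of each gene list in the selected over the other control spots (x axis), for all 125 selected spots (filled) and the 109 outside the patch (open), with the number of genes counted per list in parentheses and a line at the median of all genes counted. The atrial and ventricular lists lie near the line, at 0.01 and -0.003, and the lists furthest to the right rest on 1 gene each.

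The values came from unequal parts of the section. The upper left quadrant held 45 of the 125 spots and 218 of the 283 Myl7 and Myl4 UMIs, and there Nppa was at 0.81 (0.62 to 1.00), Acta1 at 1.01 (0.81 to 1.21) and Sln at 7 against 2 UMIs. In the upper right and lower left quadrants Nppa was lower in the selected spots, at -0.69 (-1.11 to -0.29) and -0.71 (-1.21 to -0.24), and in the lower right it was higher, at 0.97 (0.69 to 1.25). Myl2 stayed between -0.07 and 0.09 in the 4 quadrants. Ordered by score in groups of 25 spots, the first 25, of which 13 lay in the patch, held 210 Myl7 and Myl4 UMIs and had Nppa at 1.93 (1.72 to 2.12) and Myl2 at -0.24 (-0.28 to -0.19). The next 4 groups had Nppa at -0.35, 0.83, -0.40 and -1.29, without an order. The last of them held 0 Myl7 or Myl4 UMIs, so barcode order alone set it apart from the other spots, which also scored 0. The group before it also reached down to a score of 0.

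The same rule was then applied to the transgenic section, and its values are given as a description too. There 737 Myl7 and Myl4 UMIs were spread over 441 of 921 spots (47.9%), and the 92 selected spots held 281 of them (38.1%). The highest score was 9.15 per 10000 UMIs, and the spots just inside and outside the limit both scored 1.52. The largest patch, 11 spots, held 35 UMIs or 4.75% of the total. Of the 92 spots 46 (50.0%) lay at the tissue edge, against 31.6% of the other spots. Of 9400 genes with at least 100 UMIs, 394 were at least 1.5-fold higher (4.19%) and 275 lower (2.93%).

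Among genes with at least 500 UMIs, C3 was highest in the transgenic Myl7/Myl4-high spots, at 1.07 (0.86 to 1.27). Matrix genes came next, among them Comp at 1.06 (0.93 to 1.18), Slit3 at 0.91 and Sfrp2 at 0.91. Among the lowest was Hba-a2 at -1.01 (-1.03 to -0.98). In this ranking C3 came first in both sections. Among all 9400 genes counted, Msln was highest in the transgenic section, with 55 UMIs in the selected spots and 122 in the others. Nppa was at 24305 CPM against 19807 CPM, or 0.30 (0.28 to 0.31), and 9 of the 92 spots belonged to the tenth richest in Nppa. Sln had no UMI in the 92 spots, and Mybphl and Bmp10 had 1 UMI each. Myl2 was at -0.36 and Myl3 at -0.40, and Acta1 at 0.03. Beside 4.19% of all genes higher and 2.93% lower, of the 12 measured atrial genes 1 was higher (Dkk3, 0.73) and 1 lower (Kcnj3, -0.59), and of the 8 ventricular genes 1 higher (Irx4, 0.81) and 1 lower (Kcnj2, -0.64). The 14 fibroblast genes had a median of 0.31 with none past 1.5-fold, and of the 4 epicardial genes 2 were higher, as were 3 of 11 smooth muscle and pericyte genes. Of the 6 erythroid genes 5 were lower, at a median of -0.91. The energy lists had medians of -0.39 for 24 oxidative phosphorylation genes, 1 of them lower, and -0.43 for 20 fatty acid oxidation genes, 2 of them lower. None of the 17 adult contractile or 15 calcium handling genes passed 1.5-fold, at medians of -0.13 and -0.03.

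**Figure D5:**
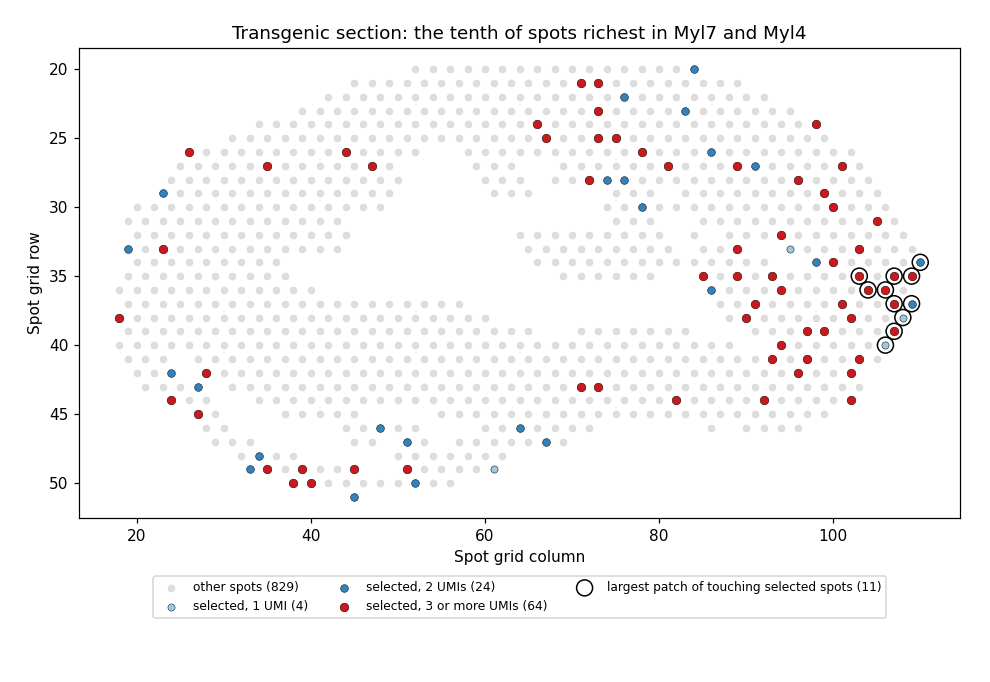
The spots selected by the same rule in the transgenic section on the spot grid (column and row numbers), colored by their number of Myl7 and Myl4 UMIs, with the largest patch ringed. The 64 spots with 3 or more UMIs are spread over the section, and the ringed patch of 11 spots at the right holds 35 of 737 UMIs.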

How the data were processed

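Visium CytAssist gene expression was measured on formalin-fixed 5 μm sections of 1 control and 1 transgenic heart. The authors ran bcl2fastq and Space Ranger, with version 2.0.0 in the file header and GRCm39 (mm39) in the submitters' processing notes. The probe set is not given in the sources used here. The deposited matrices hold raw, unnormalized UMI counts for each gene in each spot, with spot positions and tissue flags. A deposited Moran's I score per gene and section, a measure of spatial clustering, was read and supports no result. The 725 spot barcodes that both sections share encode grid positions.

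Spots under 1000 UMIs were left out. UMIs were summed over groups of spots, divided by the group's total and given as counts per 1000000 (CPM). Log2 ratios have exact conditional binomial intervals. With 1 section per genotype, and spots that are not replicates, no test was run. Genes with at least 100 UMIs in the compared spots were counted as higher or lower past 1.5-fold. The patch comparison was limited to genes with at least 2000 UMIs. The procedure was tested on simulated Poisson counts of the pooled groups. These hold no spread between spots, so they cannot show how well the intervals suit such spread. Python 3.11.15, numpy 2.4.6, scipy 1.17.1, pandas 2.3.3 and matplotlib 3.10.9 were used, with edgeR 4.0.16 and DESeq2 1.42.0 in R 4.3.3 only for scaling factors of the summed counts as alternatives.

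Named genes were the atrial and ventricular list genes with at least 20 UMIs, the 15 highest and 15 lowest ratios among genes with at least 500 UMIs, and the most abundant, highest and lowest member of each other list. The selected spots, the gene lists and the comparisons were chosen with earlier results of these data known. The patch, its ranked genes and the distances from it were chosen after the values were seen. All 13 mitochondrial genome genes, Actc1, Atp5f1a, Atp5f1b, Atp5f1c, Atp5f1d, Atp5po, Cox4i1, Cox5a, Etv1, Hba-a1, Krt18, Ly6c1, Ndufa4, Scgb1a1, Sftpb and Xirp2 were not analysed here. Promoters were matched to RefSeq by symbol. Some genes that meet the naming rule are not reported here.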

Additional observations from a re-analysis of the deposited data

Results flagged for a closer look

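Of the named genes, 3 lay on opposite sides in the sections under the same rule. Each had an interval, of counting error only, on 1 side of 0. The RNA-binding protein gene Hnrnph2 was at a log2 ratio of -0.51 in the control Myl7/Myl4-high spots and 0.31 in the transgenic ones. The pericyte gene Rgs5 was at 0.19 and -0.19, and the sodium-calcium exchanger gene Slc8a1 at 0.17 and -0.12. In the control section Rgs5 was at 0.76 in the patch. It was at 0.11 (-0.02 to 0.23) in the selected spots outside the patch, an interval that includes 0. With 1 section per genotype, the difference between the sections was not tested for any of the 3.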

How the results depend on the processing

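Over the 15 alternatives run for each, the median log2 ratio ranged from -0.17 to 0.08 for the atrial list and from -0.07 to 0.06 for the ventricular list. The log2 ratio of Nppa, 0.44, turned to -0.14 with the richest 20% of spots, to -0.068 with Myl7 alone as the score and to -0.32 with spots thinned to 5000 UMIs. It was 0.93 with the richest 5%, 0.30 without edge spots, 0.72 with only the spots that had a Myl7 or Myl4 UMI, 0.29 outside the patch and 0.60 with ties in reverse barcode order. These last 3 alternatives were chosen after seeing the data.

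The count of higher genes, 170, became 579 with the richest 5%, 45 with the richest 20%, 107 with TMM factors, 109 with DESeq2 factors, 836 at a minimum of 20 UMIs per gene, 3 at a minimum of 500 and 271 with only the spots that had a Myl7 or Myl4 UMI. The count of lower genes, 251, became 659 and 79 with the richest 5% and 20%, and 991 and 7 at minimums of 20 and 500 UMIs. The gene minimums change how many genes are counted, and the cause of the other shifts was not tested. The share of selected spots touching another, 52.0%, became 40.3% with the richest 5%, 73.2% with the richest 20%, 42.9% with only the spots that had a UMI and 38.4% with reversed ties.

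Of the 125 selected spots, 27 had 0 UMIs of the score genes and 80 had 1, so a change of 1 UMI can change which spots are selected. No paired analysis was possible because each genotype has 1 section and the results come from no test.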
